A study of Mus musculus with 6 samples.

Results

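A set of 10 genes that mark natural killer (NK) cells and CD8 T cells were named for description in the study of Sirt2 in mouse Th17 cells, and 8 of them had a row among the 24182 genes of the deposited gene table. These were Klrd1, Klrc1, Klrk1, Nkg7, Ctsw, Cd8a, Cd8b1 and Eomes. The other members of the set, Klrb1c and Ncr1, were not analysed here. The set was chosen by symbol, with the values of Sirt2 KO and Sirt2 WT libraries already known, so their levels and differences are given as a description, without a test. RNA was profiled in 6 libraries. In 3 libraries, labelled Sirt2 KO, Sirt2 had been disrupted in Th17 cells with CRISPR/Cas9, and the other 3, labelled Sirt2 WT, came from control Th17 cells. Both groups were labelled untreated, and both had been stimulated for 72 hours with antibodies to CD3 (0.5 μg/mL) and CD28 (1 μg/mL). Mouse strain, age and guide sequences are not given in the sources used here, nor is the origin of replicates (separate animals or cultures), so each p-value is relative to variation among libraries that may be purely technical.

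NK cells and CD8 T cells kill target cells by releasing granules, and receptors at their surface set the threshold for that release. CD94 (Klrd1) pairs with NKG2A (Klrc1) into an inhibitory receptor for the nonclassical MHC molecule Qa-1, whereas NKG2D (Klrk1) is an activating receptor for stress-induced ligands and signals through the adaptors DAP10 and, in mice, DAP12. CD8 alpha and CD8 beta (Cd8a and Cd8b1) form the coreceptor for MHC class I, and the beta chain needs the alpha chain to reach the cell surface. Nkg7 encodes a membrane protein of cytotoxic granules, Ctsw the protease cathepsin W, and Eomes a T-box transcription factor of NK and memory CD8 cells. CD4 helper cells silence the CD8 genes during their development in the thymus.

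The labels were first set against the data. Sirt2 was at 11.2, 13.5 and 10.9 FPKM (fragments scaled to length and to the library total) in KO replicates 1 to 3, against 20.7, 19.9 and 21.9 FPKM in WT replicates 1 to 3 (limma adjusted p = 0.0429). Every KO library was below every WT library, but Sirt2 was no longer called in 9 of 12 alternative fits, with adjusted p from 0.00905 to 0.376 over the 12. All 8 markers of CD4 T cells reached 1 FPKM in at least 3 libraries, and Cd4 itself was at 89.4 to 102 FPKM in KO, against 91.8 to 93.7 FPKM in WT. The Th17 cytokine gene Il17f was at 202 to 350 FPKM in KO, against 329 to 357 FPKM in WT. Across the tested genes KO replicate 3 correlated less with the other KO libraries (0.981 and 0.979) than with any WT library (0.990 each), so calls in the gene lists are also given without it.

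Promoters were examined for the letters of T-box and Runt factors, which are known regulators of cytotoxic genes. The part of such factors in the levels described here was not tested. RefSeq promoters on GRCm38.p6, from 250 bases before the transcription start to 50 after it, were matched for 5 of the 8 genes, namely Nkg7, Klrk1, Klrc1, Cd8a and Eomes. The T-box core GGTGTG and the Runt core TGTGGT, whose letters can overlap each other, were searched on both strands. The 3 promoters with a match are printed 5′ to 3′ on the strand of the gene, with each match in capitals.
Nkg7 (chr7:43436888-43437187, plus strand): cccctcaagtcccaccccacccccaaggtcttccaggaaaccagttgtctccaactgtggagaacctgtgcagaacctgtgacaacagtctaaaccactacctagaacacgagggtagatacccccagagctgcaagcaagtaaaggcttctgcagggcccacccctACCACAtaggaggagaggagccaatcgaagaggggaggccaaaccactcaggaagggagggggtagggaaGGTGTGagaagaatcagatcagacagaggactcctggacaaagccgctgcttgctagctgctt
Klrk1 (chr6:129623815-129624114, minus strand): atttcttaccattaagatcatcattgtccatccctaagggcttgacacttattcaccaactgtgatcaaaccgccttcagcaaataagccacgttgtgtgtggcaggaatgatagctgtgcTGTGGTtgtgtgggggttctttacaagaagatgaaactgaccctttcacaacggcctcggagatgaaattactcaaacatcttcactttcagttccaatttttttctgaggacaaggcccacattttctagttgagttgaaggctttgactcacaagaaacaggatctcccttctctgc
Klrc1 (chr6:129678924-129679223, minus strand): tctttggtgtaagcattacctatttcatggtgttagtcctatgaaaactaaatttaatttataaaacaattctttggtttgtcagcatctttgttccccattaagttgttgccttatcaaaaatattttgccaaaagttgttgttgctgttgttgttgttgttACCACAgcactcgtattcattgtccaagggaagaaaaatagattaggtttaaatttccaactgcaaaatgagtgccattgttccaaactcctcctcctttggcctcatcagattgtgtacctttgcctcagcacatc
The Nkg7 promoter held 1 Runt core (ACCACA on the strand shown) and 1 T-box core close to the RefSeq start. The main Nkg7 transcript is annotated from 43437073, upstream of that RefSeq start, so the T-box core lies within this transcript and the Runt core before it. The promoters of Klrk1 and Klrc1 held 1 Runt core each and no T-box core, and those of Cd8a and Eomes held neither set of letters. The transcripts of highest mean FPKM of Klrk1 and Eomes begin downstream of these windows, at 129622772 and 118478344, so the windows are not at their starts. Of 32851 RefSeq promoters of the same length 19.0% held the T-box core, 16.8% the Runt core and 4.79% both, so single matches are common. A match describes letters in this window only.

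Among the lectin-like receptors, transcripts of the activating receptor Klrk1 were present at low levels in both groups and were higher in KO. Klrk1 (ENSMUSG00000030149, GRCm38 chromosome 6, 129610323 to 129623864, minus strand) was at 0.379, 0.237 and 0.462 FPKM across KO replicates 1 to 3, against 0.0524, 0.104 and 0.0960 FPKM in WT replicates 1 to 3. The lowest KO library lay above the highest WT library, and the ratio of means was 4.27. Its difference on the log2(FPKM + 1) scale, which understates the change of low genes, was 0.32 (SE 0.0740). All 6 values were under 1 FPKM, so Klrk1 did not pass the filter of 1 FPKM in at least 3 libraries that was used for tests. A coding transcript of 1270 bases held 55.2% of Klrk1 transcript FPKM in KO, against 57.8% in WT. It was at 0.505, 1.08 and 0.812 FPKM in KO, against 0.236 and 0.313 FPKM in WT replicates 1 and 2, with WT replicate 3 listed at 0. In KO replicate 2, where the gene value was the lowest of KO (0.237 FPKM), this transcript was at its highest and exceeded the gene. How gene values were formed from transcripts is not given. The low level of Klrk1 and its place under the filter depend on that step.

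Klrc1 encodes the inhibitory partner NKG2A, and its ratio of means was 1.56. Klrc1 (ENSMUSG00000030167, chromosome 6, 129666015 to 129678973, minus strand) was at 1.54, 1.40 and 1.79 FPKM in KO, against 0.911, 1.37 and 0.755 FPKM in WT. The groups did not overlap, but KO replicate 2 and WT replicate 2 were nearly equal. The log2 difference was 0.37 (SE 0.144). Klrc1 shares sequence with its neighbour Klrc2, an activating relative: 38.1% of the 50-base words of its main transcript also occur in Klrc2 transcripts and 2.64% in Klrc3 transcripts. The sources used here do not say how such reads were assigned, so the split between Klrc1 and Klrc2 is uncertain. Klrc2 itself was at 0.0625, 0.146 and 0.0486 FPKM in KO, against 0.0395 and 0.0325 FPKM in WT replicates 1 and 3, with 0 listed for WT replicate 2.

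Klrd1, the common CD94 subunit, did not separate the groups. Klrd1 (ENSMUSG00000030165, chromosome 6, 129591782 to 129598775, plus strand) was at 1.24, 1.42 and 3.19 FPKM in KO, against 1.65, 1.07 and 1.47 FPKM in WT. KO replicate 3 alone was high, and the other KO libraries lay within the WT range. The log2 difference of 0.25 (SE 0.303) became -0.03 without KO replicate 3. A single 6-exon transcript of 895 bases carried 89.9% of the Klrd1 transcript FPKM in KO, against 96.5% in WT. The FPKM ratio of Klrd1 to Klrc1 was 0.808, 1.02 and 1.78 in KO and 1.81, 0.782 and 1.95 in WT, and these ranges overlapped.

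The granule genes differed in direction. Nkg7 (ENSMUSG00000004612, chromosome 7, 43437073 to 43438249, plus strand) had the largest difference of the 8 genes on the log2(FPKM + 1) scale, while its ratio of means, 3.08, was below those of Klrk1 (4.27) and Cd8a (3.58). Nkg7 was at 2.02, 2.87 and 2.22 FPKM in KO, against 0.603, 0.765 and 0.944 FPKM in WT. The lowest KO library lay well above the highest WT library, and the means were 2.37 ± 0.445 FPKM in KO, against 0.771 ± 0.171 FPKM in WT (SD, n = 3 each). The log2 difference was 0.93 (SE 0.134), and it ranged from 0.82 to 1.00 when 1 library at a time was left out. All WT libraries were under 1 FPKM, so Nkg7 passed the filter only through the KO libraries. The 4-exon coding transcript of 881 bases held 98.4% of Nkg7 transcript FPKM in KO, against 88.1% in WT.

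Ctsw, by contrast, had the highest mean listed FPKM of the 8 genes in both groups and was lower on average in KO. In KO replicates 1 and 3, however, Cd8b1 was above it. Ctsw (ENSMUSG00000024910, chromosome 19, 5465043 to 5468507, minus strand) was at 3.17, 6.70 and 4.94 FPKM in KO, against 6.79, 6.99 and 6.33 FPKM in WT. KO replicates 1 and 3 were below every WT library, while KO replicate 2 lay within the WT range. The log2 difference of -0.42 (SE 0.259) was -0.19 without KO replicate 1. Of its 6 transcripts 4 are annotated as retaining an intron, and these held 29.7, 49.2 and 51.1% of Ctsw transcript FPKM in KO libraries and 59.5, 67.2 and 24.5% in WT libraries. The spread within each group covered the difference between them.

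The CD8 chains differed from each other. Cd8a (ENSMUSG00000053977, chromosome 6, 71373427 to 71379173, plus strand) was at 0.436, 0.409 and 0.225 FPKM in KO, against 0.0931, 0.0856 and 0.120 FPKM in WT. All KO values were above all WT values, with a ratio of means of 3.58 and a log2 difference of 0.30 (SE 0.0736). Cd8b1 (ENSMUSG00000053044, chromosome 6, 71322788 to 71337494, plus strand) was at 3.24, 3.18 and 5.92 FPKM in KO, against 3.75, 4.89 and 3.84 FPKM in WT. KO replicates 1 and 2 were the lowest of the 6 libraries and KO replicate 3 the highest. The log2 difference of Cd8b1 was -0.05 (SE 0.259), and it was 0.07 without KO replicate 1, 0.08 without KO replicate 2, -0.29 without KO replicate 3 and 0.05 without WT replicate 2.

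Both CD8 genes lie on the same strand with 35932 bases between them, yet the listed gene FPKM was higher for Cd8b1 in every library. The length to which each gene value was scaled is not given, so levels of different genes may not be on one scale. The ratio of Cd8b1 to Cd8a was 7.43, 7.77 and 26.3 in KO and 40.3, 57.1 and 32.0 in WT. The ratio of Cd4 to Cd8a was 205 to 404 in KO and 778 to 1072 in WT. Within Cd8a the 5-exon coding transcript was the only one above 0 in WT, at 0.108, 0.0996 and 0.139 FPKM. In KO a 4-exon coding transcript was at 0.211 and 0.275 FPKM in replicates 2 and 3 and listed at 0 in replicate 1, and a transcript with a retained intron held 61.6% of Cd8a transcript FPKM in replicate 1. Assignment to transcripts at such levels rests on an unknown number of reads.

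Eomes had the lowest mean listed FPKM of the 8 genes in both groups, though in WT replicate 1 it was above Cd8a and Klrk1. Eomes (ENSMUSG00000032446, chromosome 9, 118478212 to 118486132, plus strand) was at 0.102, 0.129 and 0.180 FPKM in KO, against 0.112, 0.0721 and 0.0114 FPKM in WT. The groups overlapped, and the log2 difference was 0.09 (SE 0.0490). An annotated antisense gene, Gm33460, overlaps 574 bases of Eomes, and strand use in counting is not given.

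**Figure D1:**
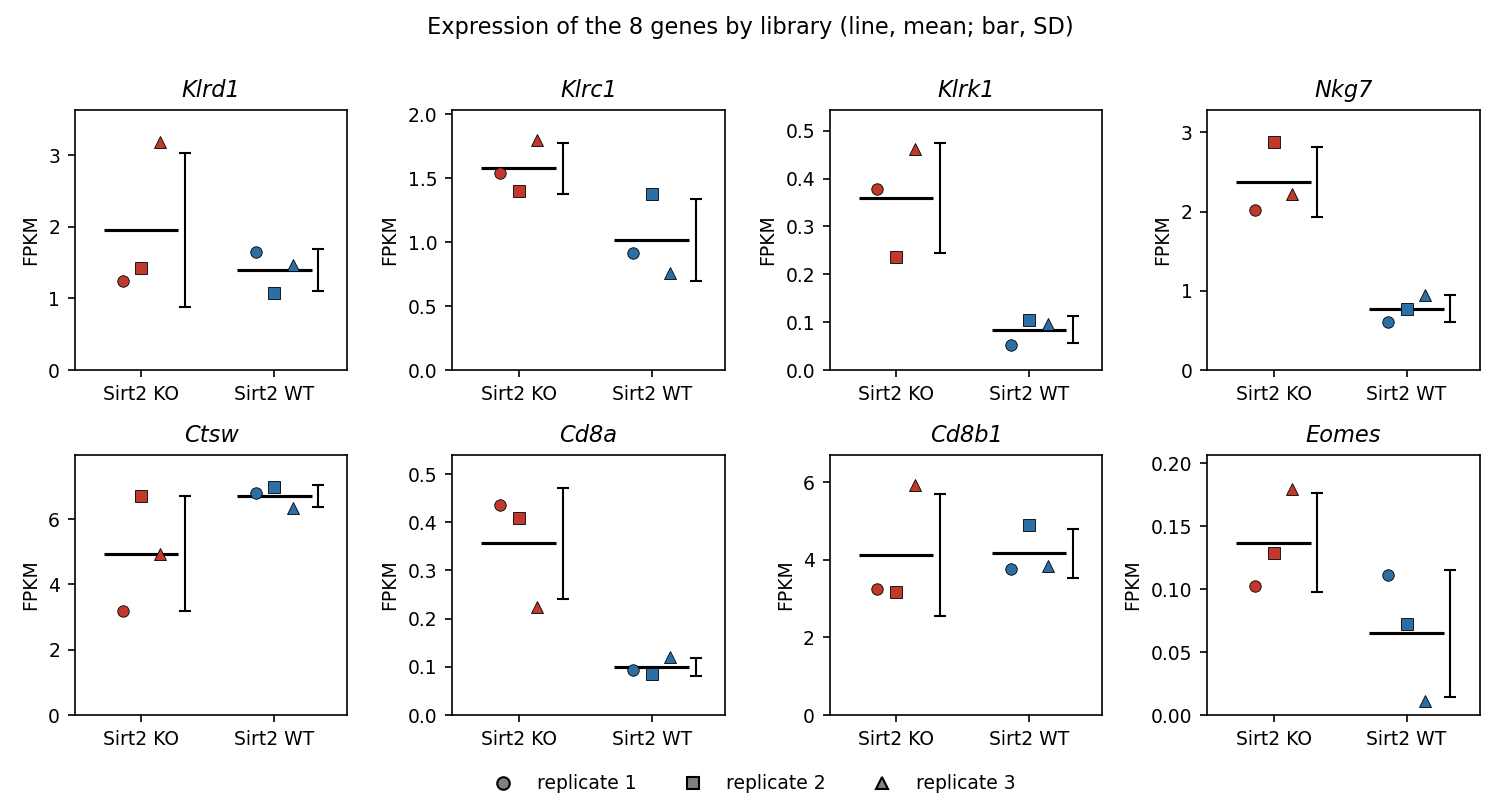
FPKM of each gene (vertical axes, linear from 0, scaled by gene) in the 3 Sirt2 KO and 3 Sirt2 WT libraries, with the mean as a line and the SD as a bar. Nkg7, Klrk1, Cd8a and Klrc1 were higher in every KO library than in any WT library, while Klrd1, Cd8b1, Ctsw and Eomes overlapped.

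Counted together, 4 of the 8 genes were higher in every KO library than in any WT library and 0 were lower in all of them, where 3.79% of all genes with a row were higher in this way and 5.26% lower (4.28 and 6.88% of the tested genes). The median log2 difference over the 8 was 0.27, beside -0.03 over the 10873 genes tested and -0.0057 over all 24182 genes with a row. Klrk1, Cd8a and Eomes are among the 8 but did not pass the filter of the tested genes. Without KO replicate 3 the log2 difference was 0.96 for Nkg7, 0.37 for Cd8a, 0.31 for Klrc1, 0.27 for Klrk1, 0.07 for Eomes and -0.44 for Ctsw. Nothing is read from these counts, since the genes were chosen with this comparison known. In bulk RNA, a change in the number of cells that express a gene and a change in RNA per cell cannot be told apart.

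In the order of listed gene FPKM, which may not put different genes on one scale, Ctsw and Cd8b1 came first in both groups. In KO they were followed by Nkg7 (2.37 FPKM on average), Klrd1 (1.95), Klrc1 (1.58), Klrk1 (0.360), Cd8a (0.356) and Eomes (0.137). In WT the order after Ctsw (6.70) and Cd8b1 (4.16) was Klrd1 (1.40), Klrc1 (1.01), Nkg7 (0.771), Cd8a (0.0995), Klrk1 (0.0842) and Eomes (0.0650). Nkg7 thus ranked 3 in KO and 5 in WT. Among neighbours in the KO order, ranges overlapped for Ctsw and Cd8b1, Nkg7 and Klrd1, Klrd1 and Klrc1, and Klrk1 and Cd8a. In the WT order they overlapped for Klrd1 and Klrc1, Klrc1 and Nkg7, Cd8a and Klrk1, and Klrk1 and Eomes. Over all libraries 26.7% of genes in the table had a higher mean than Ctsw, 41.1% a higher mean than Nkg7 and 63.3% a higher mean than Eomes.

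**Figure D2:**
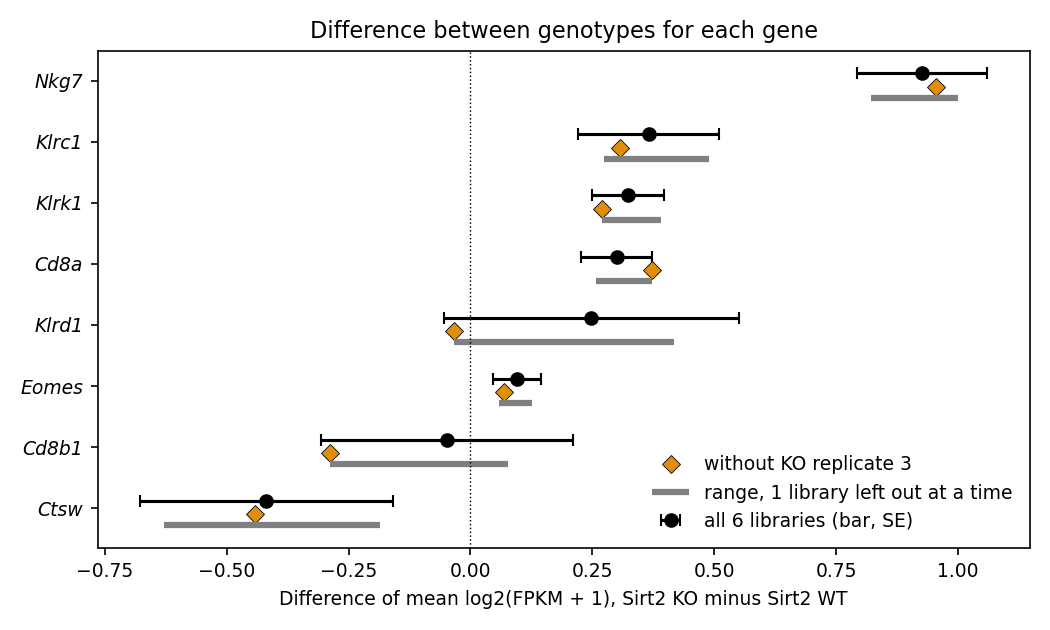
Difference of mean log2(FPKM + 1), Sirt2 KO minus Sirt2 WT (horizontal axis), for each gene, with all 6 libraries (black, bar of 1 SE), without KO replicate 3 (diamond), and as the range when 1 library at a time is left out (grey). Nkg7 stayed between 0.82 and 1.00, whereas the ranges of Klrd1 and Cd8b1 crossed 0.

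The Klr genes belong to the NK gene complex, a cluster of lectin-like receptor genes. Between Klrb1c and Klrc1 (chromosome 6, 128778485 to 129678973), 51 genes are annotated, of which 30 had a row, 27 of them outside the 8 genes. Of these 27, 2 were higher in all KO libraries, Klrc2 and Clec7a, and 0 were lower, beside 3.79 and 5.26% of all genes. Clec7a, the myeloid receptor Dectin-1, was at 0.818, 1.11 and 0.500 FPKM in KO, against 0.0890, 0.0798 and 0.0891 FPKM in WT. The 3 neighbours with a mean of at least 1 FPKM overlapped between groups. These were Clec2d, a ligand of NK receptors, at 13.0 to 15.6 FPKM in KO, against 12.8 to 15.7 FPKM in WT, Cd69, an early activation marker, at 8.72 to 9.61 FPKM in KO, against 8.21 to 8.84 FPKM in WT, and Gabarapl1, an autophagy gene, at 34.4 to 42.2 FPKM in KO, against 35.2 to 38.1 FPKM in WT.

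Further NK receptors outside the 8 genes were then considered, from a list of 35 made by known role. It had 27 genes with a row, of which 9 were higher in all KO libraries and 0 lower, beside the same 3.79 and 5.26% of all genes. Only 3 of the 27 passed the filter. The list was chosen with earlier results of these data known, so nothing is read from this count. Among the 9 were 4 Ly49 receptors, lectin-like receptors for MHC class I, encoded further along the same chromosome (130013033 to 130386874). Klra6 was at 0.297, 0.237 and 0.256 FPKM in KO and listed at 0 in all WT libraries. Klra1 was at 0.339, 0.199 and 0.324 FPKM in KO, against 0.0486 FPKM in WT replicate 3, with 0 listed for WT replicates 1 and 2. Klra3 was at 0.0309, 0.156 and 0.496 FPKM in KO and listed at 0 in all WT libraries. Klra7 was at 0.517, 0.599 and 1.41 FPKM in KO, against 0.241 and 0.119 FPKM in WT replicates 2 and 3, with 0 listed for WT replicate 1. Ly49 genes are close paralogs: of the 50-base words of the main transcript, 21.5% in Klra3 and 14.7% in Klra7, but 3.15% in Klra1 and 2.62% in Klra6, also occur in transcripts of other genes.

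**Figure D3:**
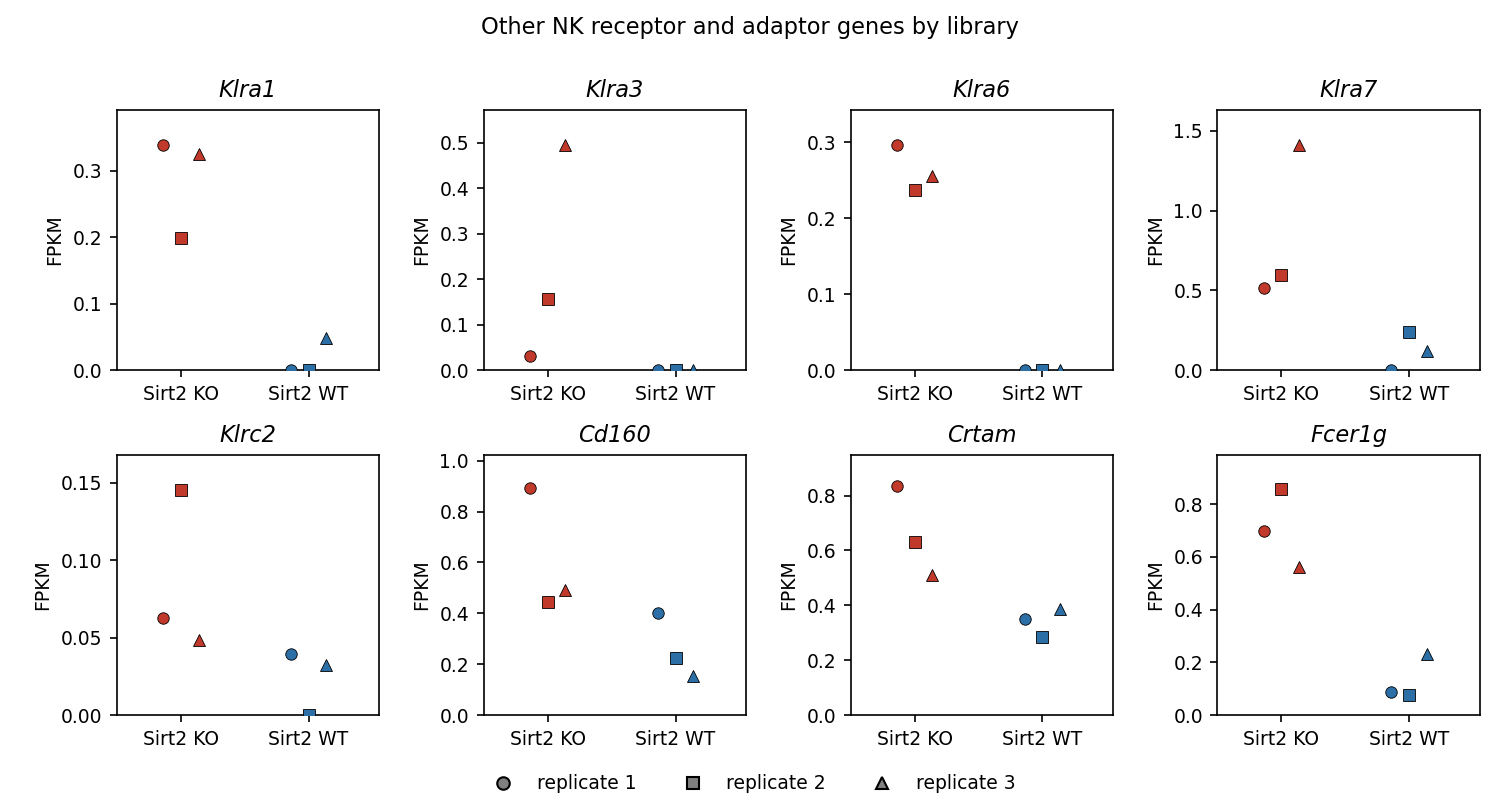
FPKM (vertical axes, linear from 0, scaled by gene) of NK receptor genes and the adaptor Fcer1g, each under the filter, in the 3 Sirt2 KO and 3 Sirt2 WT libraries; each point is 1 library. The 8 genes shown, picked after their values were seen, were higher in every KO library than in any WT library, and Klra3 and Klra6 were listed at 0 in every WT library.

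Lists of genes related by role, also chosen with earlier results known, were read against the limma fit over all tested genes. Of all tested genes 0.11% were called, 0.092% were called higher in KO, and 5.61% reached an unadjusted p under 0.05. Without KO replicate 3 these shares were 10.1% called and 32.5% at an unadjusted p under 0.05. With any other single library left out, no gene of the 7 lists except Gzmb was called. The 3 genes of the receptor list that passed the filter were Tigit, Cd96 and Cd226, which share nectin-type ligands, and 0 of them passed limma with adjustment over all genes (1 at an unadjusted p under 0.05), nor did any without KO replicate 3. The inhibitory receptor Tigit was at 5.22, 4.17 and 6.13 FPKM in KO, against 3.80, 3.21 and 3.92 FPKM in WT (limma adjusted p = 0.843). Cd96 was at 10.3 ± 1.66 FPKM in KO, against 9.57 ± 0.541 FPKM in WT, and Cd226, an activating receptor, at 7.14 ± 1.68 FPKM in KO, against 6.54 ± 0.551 FPKM in WT (SD, n = 3 each). Of the adaptors, 0 of 14 tested genes passed, also at an unadjusted p under 0.05, with a median log2 difference of 0.07. Without KO replicate 3, 1 was called higher, Sh2d2a (log2 difference 0.29), and 1 lower, Plcg1 (-0.46). Hcst, which encodes DAP10, was at 5.21, 6.01 and 6.27 FPKM in KO, against 5.04, 4.43 and 5.69 FPKM in WT (limma adjusted p = 0.846). Tyrobp, which encodes DAP12, was at 0.627 and 0.233 FPKM in KO replicates 2 and 3 and at 0.193 and 0.222 FPKM in WT replicates 1 and 3, and was listed at 0 in KO replicate 1 and WT replicate 2. Fcer1g, the signalling chain of Fc receptors in NK and myeloid cells, was at 0.696, 0.858 and 0.563 FPKM in KO, against 0.0859, 0.0749 and 0.230 FPKM in WT. Cd247, the zeta chain of the T cell receptor, was at 23.8 ± 0.931 FPKM in KO, against 21.3 ± 0.741 FPKM in WT (limma adjusted p = 0.843).

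Among ligands of these receptors 0 of 9 tested genes passed (1 at an unadjusted p under 0.05, beside 5.61% of all tested genes), with a median log2 difference of 0.01. H2-T23, which encodes Qa-1, the ligand of CD94 and NKG2A, was at 51.7 ± 3.29 FPKM in KO, against 47.6 ± 2.02 FPKM in WT (limma adjusted p = 0.849). H2-Q6, a nonclassical MHC class I gene with close paralogs, was at 3.89, 3.79 and 5.93 FPKM in KO, against 2.41, 2.99 and 2.62 FPKM in WT (limma adjusted p = 0.722, and 0.0418 without KO replicate 3, where it was the 1 gene of the list called).

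In the list of granule and killing genes, 2 of 13 tested genes rose and 0 fell, where 0.092% of all tested genes were called higher. At an unadjusted p under 0.05 there were 5, beside 5.61% of all tested genes, and the median log2 difference was 0.02. Of its 20 genes with a row, 6 were higher in all KO libraries and 1 lower, beside 3.79 and 5.26% of all genes. The lower gene was Ctsl (log2 difference -0.32, limma adjusted p = 0.843). Without KO replicate 3, 4 of 12 tested genes were called higher, Gzmb, Stx11, Serpinb6b and Serpinb9, where 429 of all 10726 tested genes were. Gzmb, the granule protease that triggers apoptosis, rose to 16.3 ± 4.13 FPKM in KO, against 2.80 ± 0.156 FPKM in WT (limma adjusted p = 0.00675). Gzmc, a related granzyme, rose to 2.10, 2.06 and 1.45 FPKM in KO, against 0.379, 0.145 and 0.0958 FPKM in WT (limma adjusted p = 0.0375). It passed the filter only through the KO libraries. Gzmb was not called without KO replicate 1, WT replicate 2 or WT replicate 3 (limma adjusted p = 0.0688, 0.0502 and 0.0543), nor without a filter on low values (0.0721). Gzmc did not reach the filter when any KO library was left out, and was not called without WT replicate 1, 2 or 3 (limma adjusted p = 0.0736, 0.235 and 0.288), without a filter (0.131) or with a pseudocount of 0.1 (0.0793). Prf1, which encodes the pore-forming protein perforin, overlapped between groups at 0.494, 0.117 and 0.169 FPKM in KO, against 0.205, 0.251 and 0.146 FPKM in WT. Serpinb6b, an inhibitor of granzyme A, was at 14.8, 10.5 and 11.0 FPKM in KO, against 7.68, 8.17 and 8.08 FPKM in WT (limma adjusted p = 0.545, and 0.0345 without KO replicate 3). The FPKM ratio of Gzmb to Nkg7 was 9.49, 6.32 and 5.22 in KO and 4.42, 3.61 and 3.14 in WT.

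Of the regulators and markers that separate the CD4 and CD8 lineages, 0 of 14 tested genes passed limma, also at an unadjusted p under 0.05, and the median log2 difference was -0.01. Satb1 was called lower when KO replicate 3 was left out (log2 difference -0.36), and no other gene of the list was called then. Runx3, which silences Cd4 in CD8 cells, was at 15.8, 19.7 and 19.6 FPKM in KO, against 19.2, 19.9 and 17.2 FPKM in WT (log2 difference -0.04, SE 0.103, limma adjusted p = 0.954). Zbtb7b, which encodes the CD4 lineage factor ThPOK, was at 7.77 ± 1.21 FPKM in KO, against 7.88 ± 0.396 FPKM in WT (limma adjusted p = 0.969). Cbfb, the partner of Runt factors, had the smallest p of the list, at 42.2 ± 1.43 FPKM in KO, against 46.4 ± 1.44 FPKM in WT (limma adjusted p = 0.843).

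Of effector and NK transcription factors 0 of 14 tested genes passed (3 at an unadjusted p under 0.05, beside 5.61% of all tested genes), with a median log2 difference of 0.06. Without KO replicate 3, 3 were called higher (Tbx21, Id3 and Batf) and 4 lower (Stat5b, Irf4, Ets1 and Foxo1). In that fit 429 of all 10726 tested genes were called higher and 659 lower. Tbx21, which encodes T-bet, the T-box relative of Eomes, was at 4.38, 2.83 and 2.11 FPKM in KO, against 1.62, 1.48 and 1.60 FPKM in WT (limma adjusted p = 0.806, and 0.0230 without KO replicate 3). Bhlhe40 was at 181 ± 14.4 FPKM in KO, against 155 ± 1.95 FPKM in WT, and Id3, an inhibitor of E proteins, at 41.5, 31.0 and 21.4 FPKM in KO, against 21.0, 20.5 and 21.9 FPKM in WT (limma adjusted p = 0.843 for each). For Id3 it was 0.0164 without KO replicate 3, by limma. Of receptors for cytokines that act on NK and CD8 cells 0 of 12 tested genes passed, also at an unadjusted p under 0.05, with a median log2 difference of -0.03. When KO replicate 3 was left out, 3 were called lower, Il12rb2 (log2 difference -1.30), Il7r (-0.52) and Il2ra (-0.45). Il18rap, a chain of the interleukin 18 receptor, was at 2.02, 1.36 and 1.18 FPKM in KO, against 1.09, 1.16 and 1.01 FPKM in WT (limma adjusted p = 0.843).

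Markers of other cell types were summed beside these results. The marker lists were also chosen with earlier results known, so their counts are a description. For NK cells 10 of 14 listed markers had a row, and their summed level was 14.6 to 19.4 FPKM in KO, against 15.3 to 16.2 FPKM in WT, most of it from Irf8, which other cells also express. Of these 10, only Gzma was higher in all KO libraries, at 0.424, 0.326 and 0.760 FPKM, against 0.252 FPKM in WT replicate 3, and it was listed at 0 in WT replicates 1 and 2. The 6 CD8 T cell markers summed to 20.4 to 26.5 FPKM in KO, against 21.6 to 25.2 FPKM in WT, mostly Runx3, which Th17 cells share. Of these 6, Cd8a and Crtam were higher in all KO libraries, while Gzmk was above 0 only in KO replicate 2, at 0.161 FPKM. The 5 gamma-delta T cell markers with a row summed to 1.17 to 1.49 FPKM in KO, against 0.408 to 0.770 FPKM in WT. Most of this sum was Trdc, the delta chain constant gene, at 1.24, 0.823 and 1.17 FPKM in KO, against 0.448, 0.501 and 0.228 FPKM in WT. Of the 5, Trdc and Blk were higher in all KO libraries. Sox13 overlapped and was lower on average in KO (0.167 FPKM, against 0.195 FPKM in WT), and Cd163l1 and 5830411N06Rik overlapped at very low levels. For NKT cells, 3 of 4 listed markers had a row, summing to 0 to 0.502 FPKM in KO, against 0.0989 to 3.88 FPKM in WT, and 0 of these 3 separated the groups.

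The 18 myeloid markers summed to 10.4 to 14.9 FPKM in KO, against 3.35 to 4.56 FPKM in WT, and 8 of 18 were higher in all KO libraries, where 3.79% of all genes were. Among them Lyz2, the lysozyme gene, was at 8.31, 9.44 and 4.24 FPKM in KO, against 1.38, 1.03 and 0.782 FPKM in WT. Adgre1, which encodes a macrophage surface protein, stayed under 0.05 FPKM in every library. The 11 B cell markers with a row summed to 27.5 to 33.9 FPKM in KO, against 23.6 to 23.9 FPKM in WT, and 4 of 11 were higher in all KO libraries. Most of the B cell sum was Ighm, the IgM heavy chain gene, at 22.0, 21.3 and 25.3 FPKM in KO, against 18.5, 18.6 and 18.3 FPKM in WT. No marker with a row was listed at 0 in all 6 libraries, and 0 markers of these other cell types were lower in all KO libraries. The part that cells of other types had in the levels of Nkg7, Klrk1, Cd8a, Klrc1 and the Ly49 genes was not tested.

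**Figure D4:**
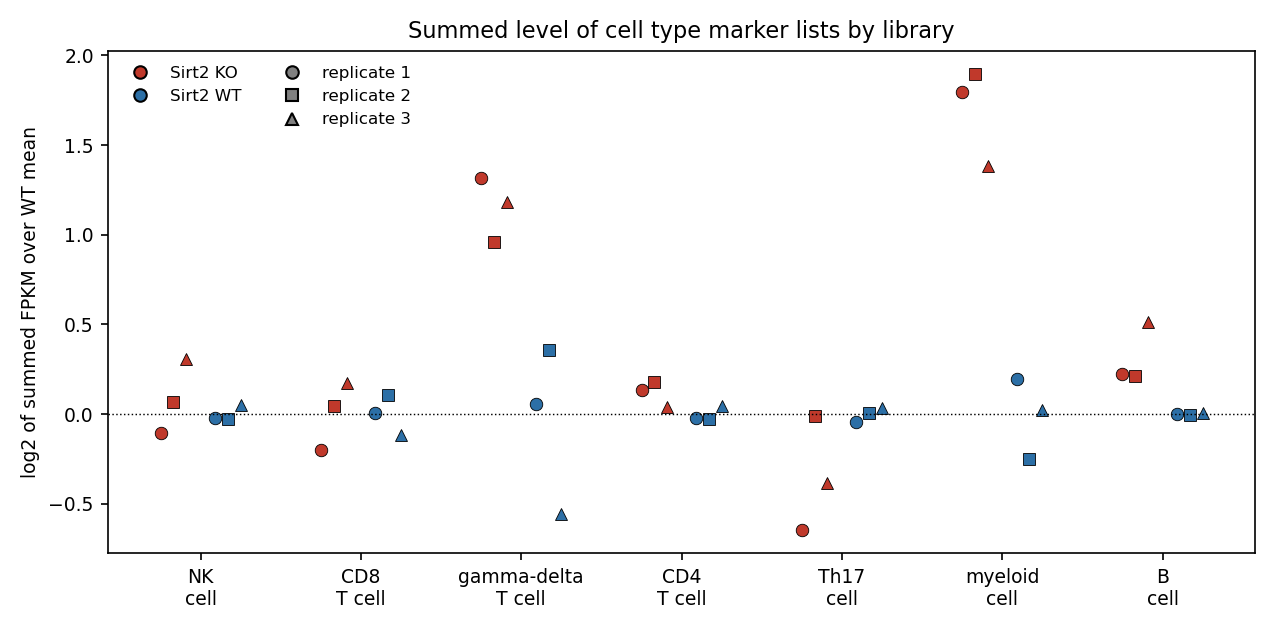
Summed FPKM of each marker list in each library, as log2 of its ratio to the WT mean (vertical axis); red points are Sirt2 KO and blue points Sirt2 WT, with shapes for replicates; NKT cells are left out because 1 library summed to 0. Myeloid (10.4 to 14.9 FPKM in KO, 3.35 to 4.56 FPKM in WT), gamma-delta T cell and B cell sums were higher in every KO library than in any WT library, while NK cell and CD8 T cell sums overlapped. Trdc made up most of the gamma-delta T cell sum and Ighm most of the B cell sum.

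The tested genes most like each of the 5 genes that passed the filter were found by the root mean square difference between log2(FPKM + 1) profiles over the 6 libraries, each centred on its own mean, among 9510 named genes. For Nkg7 these were Hspb6, a small heat shock protein gene (0.116, where the median over all genes was 0.505), Cdk5rap1, a tRNA-modifying enzyme (0.148), and Dapl1 (0.176). Hspb6 was at 3.52, 5.11 and 5.16 FPKM in KO, against 1.81, 1.85 and 2.39 FPKM in WT. For Klrc1 they were the MHC class II gene H2-Eb1 (0.0793, median 0.269), the interleukin 1 receptor gene Il1r1 (0.102) and the adhesion gene Bcam (0.104). H2-Eb1 was at 1.65, 1.35 and 1.74 FPKM in KO, against 1.01, 1.11 and 0.692 FPKM in WT.

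The profile of Ctsw was closest to that of Il17f, which encodes the Th17 cytokine interleukin 17F (0.0951, median 0.343), followed by Pdpn, which encodes podoplanin (0.104), and Fam214b (0.108). Il17f was at 202, 350 and 244 FPKM in KO, against 329, 343 and 357 FPKM in WT, so that KO replicate 1 was lowest for both genes. For Klrd1 the nearest were Tubg2, a gamma tubulin gene (0.0687, median 0.332), the T cell receptor segment Trav7n-6 (0.0753) and Tg (0.0904), and among the nearest to Cd8b1 were Acsf2 (0.0671, median 0.261) and H2-Q5 (0.0695). In all 5 of these genes KO replicate 3 had the highest value. With 6 libraries such likeness is a description of these libraries.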

How the data were processed

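RNA sequencing of 6 libraries was used, 3 labelled Sirt2 KO and 3 labelled Sirt2 WT, with groups and replicate numbers from the sample titles. Per the file headers, the authors deposited FPKM per gene and per transcript for each library. Tools named in the submitters' processing notes, with no version or role, are HISAT2, StringTie, edgeR, DESeq2, FastQC and cutadapt, and the build named is mm9. Of 73430 transcript IDs found in GENCODE M21 on GRCm38, 73203 matched in position and strand, and positions are therefore reported on GRCm38. The tables hold no counts, so depth is unknown and no counting interval is given. FPKM is relative to each library's total.

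The genes described and all gene lists were chosen with earlier results of these data known. For each gene the KO mean minus the WT mean of log2(FPKM + 1) was taken, with its SE from the group variances. Genes at 1 FPKM or more in at least 3 libraries (10873) were fitted in R 4.3.3 with limma 3.58.1 (trend option on, Benjamini-Hochberg adjustment over all of them), and adjusted p under 0.05 was called. A count model was not used, because the values are not counts. "Rose" and "fell" are used of called genes. From each of 7 lists called genes were named and, up to 3, those of smallest p, besides genes fixed by role. Equal replicate numbers were not taken to pair the libraries, as described among the alternatives. Sequence sharing used 50-base words of GENCODE M21 transcripts. The authors' enrichment tables were not used. Some items that the naming rules would give are not reported here.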

Additional observations from a re-analysis of the deposited data

How the results depend on the processing

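The number of genes called was 12 (10 higher, 2 lower in KO). It was 8 without a filter, 12 with a pseudocount of 0.1 or without the mean trend, 13 after scaling to a common median and 5 with a filter at 5 FPKM. With 1 library left out it ran from 0, without KO replicate 1 (346 genes at an unadjusted p under 0.05), to 1088, without KO replicate 3 (429 higher, 659 lower in KO). In the 7 lists of related genes, 2 genes were called (Gzmb and Gzmc), 1 without a filter (Klra6), 1 with a filter at 5 FPKM and 1 with a pseudocount of 0.1 (Gzmb in both). With 1 library left out the count ran from 0 to 18, the last without KO replicate 3 (9 higher, 9 lower). It was 0 without KO replicate 1, WT replicate 2 or WT replicate 3 (6, 7 and 7 at an unadjusted p under 0.05, by limma). With the replicate number as a block 13 genes were called, 2 of them in these lists (Gzmb and Gzmc). Deviations from the group mean correlated at 0.0067, -0.0170 and -0.0756 between libraries of equal number, so the numbers were not taken to pair the libraries. With 3 libraries per group, these correlations cannot show whether libraries of equal number share an animal or culture.

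The median log2 difference over the 8 genes, 0.27, was 0.59 with a pseudocount of 0.1, by construction, since that scale stretches low values. With that pseudocount Nkg7 was at 1.51, Klrk1 at 1.30, Cd8a at 1.16, Klrc1 at 0.62 and Eomes at 0.56. The sign differed from that with all libraries in 4 of 64 values over these alternatives, 1 for Klrd1 and 3 for Cd8b1. Scaling moved the median of the tested genes by 0.0363 (log2). Depth is unknown, so a level under 1 FPKM may rest on few reads.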
